A study of Mus musculus with 4 samples.

Results

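The genes described here encode the major histocompatibility complex (MHC) and the machinery that supplies it with peptides, measured in irradiated mouse intestinal organoids. They were taken by name, not by their values: protein-coding genes whose symbol begins with H2-, together with B2m, Tap1, Tap2, Tapbp, Tapbpl, Psmb8, Psmb9, Psmb10, Nlrc5, Ciita, Cd74, Erap1 and Cd1d1, where at least 1 read was counted in any library. This gave 35 of the 26144 genes with a count. By role, 18 were class I genes (16 heavy chains, B2m and Cd1d1), 6 served class I peptide loading, 3 were immunoproteasome subunits and 7 were class II genes. H2-Ke6, a dehydrogenase gene that carries the prefix only because of where it lies, fell in no class. Of the 35, 28 had enough counts to be tested. The other 7 had at most 30 counts over all libraries, and every tested gene had at least 35.

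Intestinal organoids, epithelial structures grown from intestinal tissue, came from wild-type C57BL/6 mice aged 8 to 12 weeks. All received 8 Gy of irradiation and were harvested for total RNA 36 hours later, after vehicle (2 libraries) or SGC-CBP30 (2 libraries), and no unirradiated group was analysed here. SGC-CBP30 binds the bromodomains of CBP and p300, a pair of related histone acetyltransferases. The treatment label of SGC-CBP30 replicate 2 reads SGC-CBP31. Its title and the stated group size place it with SGC-CBP30. The labels do not say whether replicates were separate cultures or animals, so a p-value speaks only for the variation among these 4 libraries, which may be technical. The libraries held 16433117 to 18087250 counts. The 8 epithelial markers examined, such as Epcam, Vil1 and Cdh1, summed to 7544 and 7590 CPM (counts scaled to library size) in the vehicle libraries and to 9497 and 8794 CPM with SGC-CBP30, Krt8, Krt18 and Krt19 being higher, Cdx2 lower (-0.21, edgeR adjusted p = 0.0295) and the other 4 not past the test. The 30 markers of leukocytes, fibroblasts and endothelium together gave 8.54 to 11.4 CPM in any library. That total hides shifts between its lists. The 5 fibroblast markers summed to 7 and 9 counts with vehicle and to 42 and 19 with SGC-CBP30. The 3 endothelial markers had 23 and 16 counts against 21 and 28, and the macrophage and dendritic cell markers, given below, went down as a sum. In whole organoids, fewer cells of a type and less RNA per cell cannot be told apart.

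MHC class I molecules are made by almost every nucleated cell. A heavy chain pairs with beta-2 microglobulin, encoded by B2m, and holds a short peptide cut from proteins of the cell. The peptides are cut by the proteasome, pumped into the endoplasmic reticulum by the TAP transporter and fitted to the heavy chain by tapasin. Under interferon-gamma, the immunoproteasome subunits take the place of the constitutive catalytic subunits, and NLRC5 drives the class I promoters. Class II molecules, by contrast, carry peptides from the endocytic route, belong mainly to professional antigen-presenting cells, and depend on the transactivator CIITA. Intestinal epithelium can be induced to express class II, and it also carries non-classical class I molecules that are read by intraepithelial lymphocytes.

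Promoters of some called genes are shown first: H2-D1 and H2-K1 were called higher, and B2m, Tap1 and Psmb9 lower. They were picked after these values were seen, and the calls of H2-K1 and Psmb9 did not hold under every alternative processing. Those of other called genes, such as H2-T22 (higher) and H2-Q2 and H2-T3 (lower), are not shown. The sequences come from RefSeq (GRCm38.p6), in which 26 of the 35 genes had an entry. Capitals mark matches on either strand to AANNGAAA (the core of an interferon-stimulated response element), to TTCNNNGAA (a STAT factor pattern), to CCAAT and to the class I enhancer A palindrome (a kappa B site, the longest capital run in H2-K1 and H2-D1); none of the matches in these sequences overlap. The first 3 are the 250 bases before the first RefSeq start listed. The last is the 225 bases between the RefSeq starts of Psmb9, read leftward, and Tap1, read rightward, given on the plus strand. The deposited gene spans can begin at other starts. In them this last stretch lies within Psmb9, and the H2-D1 stretch lies within H2-D1.
H2-K1, chr17:34000348-34000597, minus strand: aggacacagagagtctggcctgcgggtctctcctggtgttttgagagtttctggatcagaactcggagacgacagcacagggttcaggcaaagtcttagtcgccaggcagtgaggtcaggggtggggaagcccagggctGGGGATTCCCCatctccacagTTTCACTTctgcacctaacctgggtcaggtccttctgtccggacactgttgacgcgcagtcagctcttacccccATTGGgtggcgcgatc
H2-D1, chr17:35262844-35263093, plus strand: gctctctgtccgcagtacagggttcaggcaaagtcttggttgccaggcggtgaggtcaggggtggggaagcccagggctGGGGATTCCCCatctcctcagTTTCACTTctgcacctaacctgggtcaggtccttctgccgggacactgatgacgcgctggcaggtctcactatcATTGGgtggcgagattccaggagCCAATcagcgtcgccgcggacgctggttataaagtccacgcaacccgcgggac
B2m, chr2:122147437-122147686, plus strand: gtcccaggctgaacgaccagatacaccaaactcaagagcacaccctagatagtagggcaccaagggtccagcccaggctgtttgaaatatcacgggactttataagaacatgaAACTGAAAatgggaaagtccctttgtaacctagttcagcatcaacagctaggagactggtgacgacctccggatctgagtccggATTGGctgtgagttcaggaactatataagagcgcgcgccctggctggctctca
Psmb9 to Tap1, chr17:34187331-34187555, plus strand: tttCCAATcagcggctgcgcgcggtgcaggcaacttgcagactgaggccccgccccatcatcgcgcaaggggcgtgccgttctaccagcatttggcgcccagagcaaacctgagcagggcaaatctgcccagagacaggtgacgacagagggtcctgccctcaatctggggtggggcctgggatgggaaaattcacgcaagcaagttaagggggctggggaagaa
The promoters of H2-K1 and H2-D1 both hold enhancer A with, after it, an interferon element core, and B2m holds the core without enhancer A. Among 27025 mouse promoters of the same length, that palindrome was found in 6 (0.0222%), of which 3 belong to H2-K1, H2-D1 and H2-Q6. H2-Q6 was low, with 152 counts with vehicle and 99 with SGC-CBP30, and did not pass (log2 fold change -0.65, edgeR adjusted p = 0.0781). A role of enhancer A was not tested. The AANNGAAA core was found in 13 of 15 class I promoters against 21.6% of all promoters, and CCAAT in 13 of 15 against 34.5%. Called class I genes with the AANNGAAA core went both ways: H2-K1, H2-D1, H2-T22 and H2-T23 were higher, and B2m, H2-Q2 and H2-T3 lower. Class I genes are duplicates of one another, so these promoters are not independent examples. No promoter of the 3 immunoproteasome genes or of the 3 loading genes with an entry matched AANNGAAA in this window, and the STAT pattern, found in 7.18% of all promoters, was matched by Psmb8 and H2-M3. The matches are letters in a window and not measured sites.

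With SGC-CBP30 the class I heavy chain genes split, while their partner chain, a peptide pump gene and the immunoproteasome were lower. H2-D1 was 1.45-fold and H2-T22 1.46-fold higher, B2m was 1.39-fold lower and Tap1 1.54-fold lower. In all, 15 of the 28 tested genes changed (edgeR, quasi-likelihood F test, with an adjusted p under 0.05): 4 rose and 11 fell. The same rule called 30.0% of all 14684 genes tested, 13.6% as higher and 16.3% as lower. By class, 4 class I genes rose and 4 fell out of 14 tested, with a median log2 fold change of 0.020. All 3 immunoproteasome genes fell (median -0.43), 2 of 6 loading genes fell (median -0.38), and 2 of 5 tested class II genes fell (median -0.063). The median over all genes tested was 0.0096. These counts and medians cover the genes that passed the filter on low counts, and a gene near that filter can pass through the group in which it is higher. The class II gene H2-DMb1 did so, with 9 and 0 counts with vehicle and 10 and 16 with SGC-CBP30. The CPM of the groups did not overlap in 26 of the 28, against 63.1% of all genes tested. When only genes with at least 50 counts in 2 libraries were kept, edgeR called 4162 of 11436, a larger share than 30.0%. That fit called 7 of 12 class I, 2 of 5 loading, 3 of 3 immunoproteasome and 2 of 4 class II genes. The part of abundance in these shares was not tested. The calls of 7 genes held under every alternative processing that gave a value: H2-D1, H2-T22, H2-T3, H2-Q1, B2m, Tap1 and Tapbpl.

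**Figure D1:**
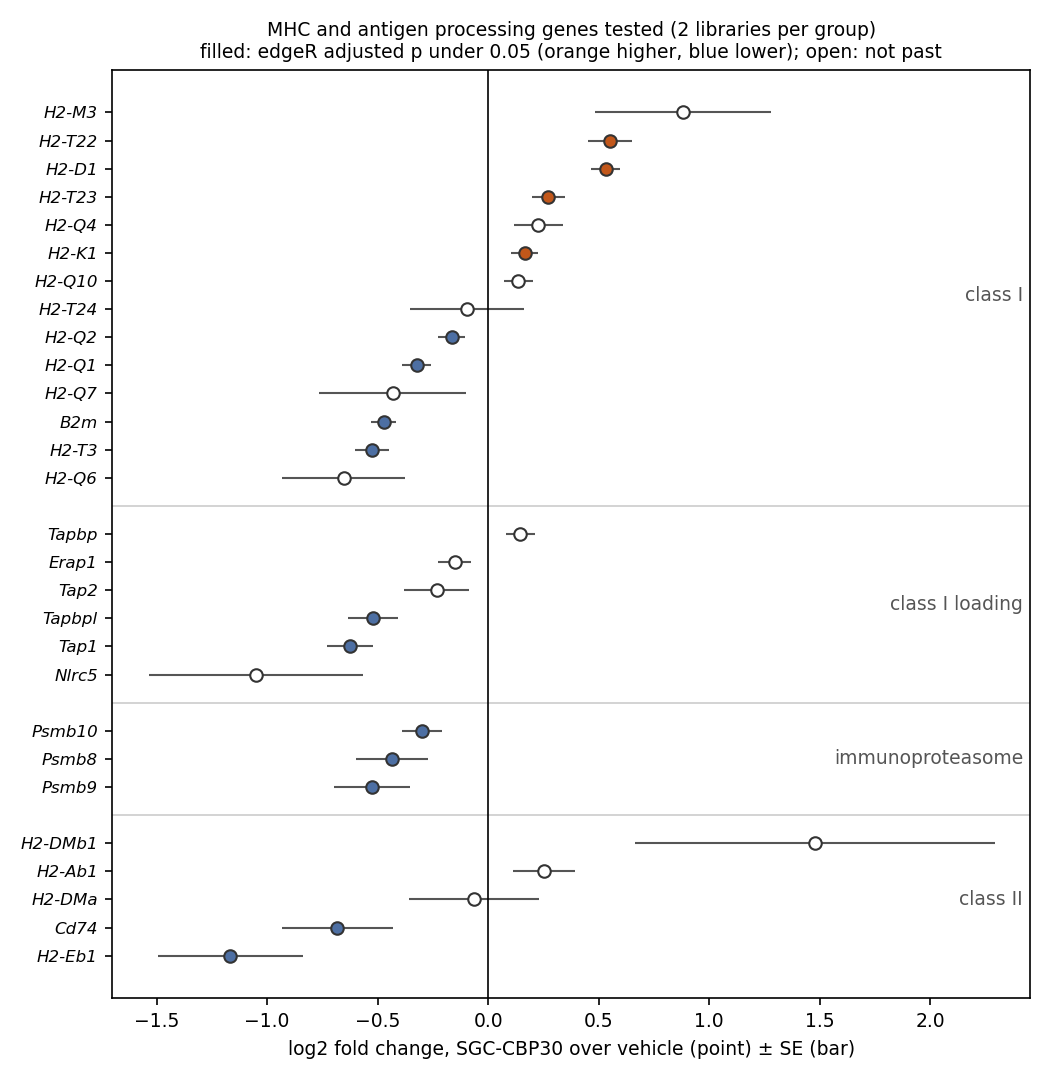
Log2 fold change with SGC-CBP30 relative to vehicle (x axis, point) with its SE (bar) for the 28 tested genes, grouped by class; filled points passed an edgeR adjusted p of 0.05 and open points did not. Class I genes lie on both sides of 0, and the 3 immunoproteasome genes lie below it.

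Levels are compared between genes as the authors' deposited FPKM, which are per kilobase of gene length. In vehicle libraries the class I heavy chains ranged from H2-K1 at 458 ± 11.2 FPKM (SD, n = 2) through H2-Q2 at 353 ± 3.84 and H2-D1 at 171 ± 3.96 down to genes below 1 FPKM. H2-K1, H2-D1 and H2-Q2 together made 82.4% of all heavy chain FPKM with vehicle and 84.4% and 83.8% in the SGC-CBP30 libraries. H2-K1 and H2-D1 are the classical, peptide-presenting heavy chains of this strain, and the Q, T and M genes are non-classical.

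H2-D1 (ENSMUSG00000073411, chromosome 17, 35262730 to 35267499, plus strand) stood at 437 and 450 CPM in the vehicle libraries and at 694 and 587 CPM in the SGC-CBP30 libraries. Both treated libraries lay above both controls. The log2 fold change was 0.53 ± 0.067 (SE, adjusted p = 1.11e-06). H2-K1 (ENSMUSG00000061232, chromosome 17, 33996017 to 34000333, minus strand), the most abundant heavy chain, read 1184 and 1219 CPM with vehicle and 1427 and 1267 CPM with SGC-CBP30. Its groups were close, and the log2 fold change of 0.17 ± 0.061 passed the test narrowly (adjusted p = 0.0421). H2-K1 no longer passed without vehicle replicate 1 (edgeR adjusted p = 0.344), vehicle replicate 2 (0.181) or SGC-CBP30 replicate 1 (0.132, log2 fold change 0.073), and by DESeq2 (0.0587). Within a library, the FPKM of H2-D1 was 0.374 and 0.373 of that of H2-K1 with vehicle and 0.492 and 0.469 with SGC-CBP30, so the balance between the classical chains moved towards H2-D1.

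Among the Q genes, non-classical heavy chains that lie beside H2-D1, H2-Q1 and H2-Q2 fell and the others did not pass. H2-Q1 read 189.5 and 188.5 CPM with vehicle and 158 and 145 CPM with SGC-CBP30, a log2 fold change of -0.32 ± 0.066 (SE, adjusted p = 0.000504). H2-Q2 read 769 and 777 CPM against 727 and 652 CPM (-0.17 ± 0.060, adjusted p = 0.0395). The H2-Q2 groups do not overlap, but the difference is small, and it did not pass without vehicle replicate 1 (edgeR adjusted p = 0.244), vehicle replicate 2 (0.318) or SGC-CBP30 replicate 2 (0.0887, log2 fold change -0.088), with library totals as the scale (0.233), or by DESeq2 (0.0611). As a share of heavy chain FPKM, H2-Q2 went from 29.6% ± 0.229 to 24.6% ± 0.195 while H2-D1 went from 14.4% ± 0.0654 to 19.3% ± 0.649 (SD, n = 2). H2-Q10, known as a secreted class I gene of the liver, had 229 ± 16.4 CPM against 251 ± 10.1 CPM and did not pass (0.14 ± 0.065, adjusted p = 0.12). Its groups are adjacent, and it passed without SGC-CBP30 replicate 2 (log2 fold change 0.18, adjusted p = 0.00417). H2-Q4 had 30.8 and 30.5 CPM against 40.2 and 31.5 CPM (adjusted p = 0.134), the difference resting on SGC-CBP30 replicate 1: it was 0.39 (adjusted p = 0.00316) without SGC-CBP30 replicate 2. H2-Q6 (152 counts with vehicle, 99 with SGC-CBP30) and H2-Q7 (96 and 73 counts), which encode lipid-anchored Qa-2 antigens, were low and did not pass (adjusted p = 0.0781 and 0.368).

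The T genes also split. H2-T22, which encodes a ligand of gamma-delta T cells, read 26.2 and 27.1 CPM with vehicle and 39.4 and 38.6 CPM with SGC-CBP30. The replicates lay close together and the groups far apart (0.55 ± 0.10, SE, adjusted p = 0.000152). H2-T23, the Qa-1 gene, whose product is a ligand of inhibitory receptors on natural killer cells, went from 93.1 and 94.2 CPM to 120 and 106 CPM (0.27 ± 0.074, adjusted p = 0.00721). It did not pass without vehicle replicate 1 (edgeR adjusted p = 0.0984), vehicle replicate 2 (0.0711) or SGC-CBP30 replicate 1 (0.0521, log2 fold change 0.17). H2-T3 went the other way. It encodes the thymus leukaemia antigen, a class I molecule typical of intestinal epithelium that binds CD8 alpha homodimers, and fell from 94.2 and 88.1 CPM to 65.6 and 61.2 CPM (-0.52 ± 0.077, adjusted p = 8.91e-06). H2-T24 had 5.10 and 5.26 CPM against 3.47 and 6.21 CPM, overlapping groups, and H2-M3, which presents formylated bacterial peptides, had 20 and 20 counts against 36 and 40 (0.88 ± 0.40, adjusted p = 0.101). Counts of the remaining class I genes were too low to test: Cd1d1, the lipid-presenting CD1d gene, had 15 counts with vehicle and 11 with SGC-CBP30, H2-M10.2 had 5 and 4, and H2-M10.6 and H2-M2 had 1 count each in all. H2-Ke6 had 4 counts with vehicle and 1 with SGC-CBP30.

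**Figure D2:**
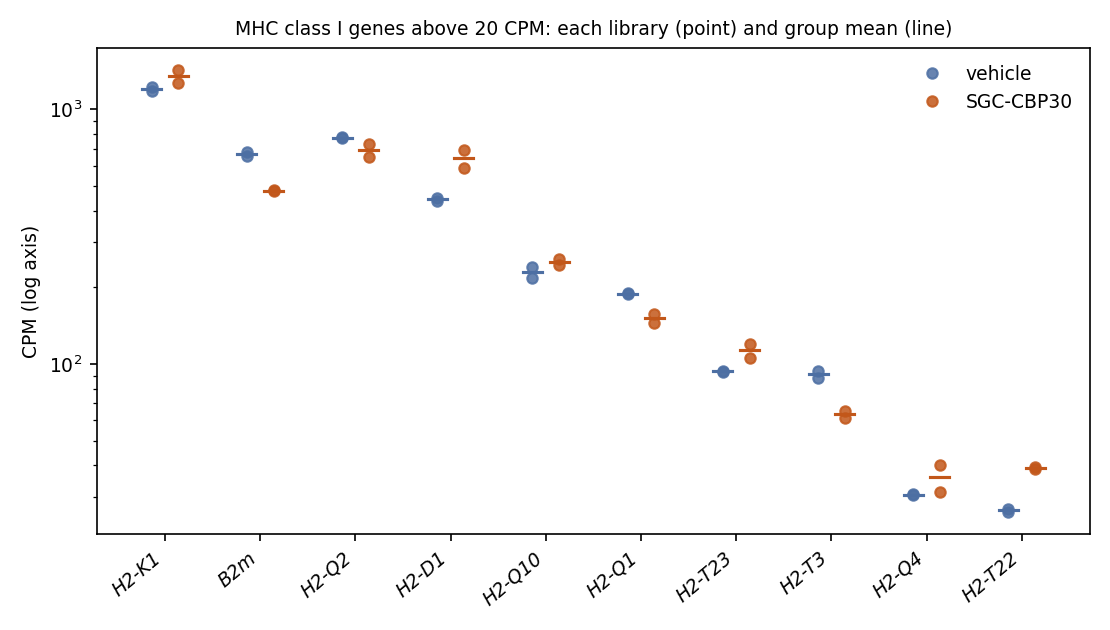
CPM (log axis) of the class I genes above 20 CPM in each of the 4 libraries (points) with the group mean (line). H2-D1, H2-T23 and H2-T22 lie higher with SGC-CBP30, and B2m, H2-Q1 and H2-T3 lie lower.

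B2m (ENSMUSG00000060802, chromosome 2, 122147686 to 122153083, plus strand) encodes the chain that all of these heavy chains share, and it fell. It stood at 653 and 678 CPM with vehicle and at 482 and 477 CPM with SGC-CBP30, a log2 fold change of -0.47 ± 0.057 (SE, adjusted p = 4.25e-07). The groups lay far apart against the spread of either. Summed over the 16 heavy chain genes, by contrast, the level was 3054 and 3128 CPM with vehicle and 3541 and 3144 CPM with SGC-CBP30, a difference within the spread of the treated libraries. This CPM sum is not changed by how assigned reads were divided among the heavy chain genes. A sum of FPKM can be, since each gene is divided by its own length. Per library, heavy chain FPKM summed to 1.56 and 1.53 times the B2m FPKM with vehicle and to 2.43 and 2.18 times with SGC-CBP30. The ratio was therefore higher in both treated libraries, and no test is given for it, since the smallest two-sided exact permutation p for 2 libraries against 2 is 0.333.

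How reads that match several genes were handled is not given in the sources used here, so counts of near-identical class I genes are uncertain. In the GENCODE M21 transcripts, B2m and H2-T3 shared no run of 75 bases with another gene. The share of such runs also present in another gene was 3.10% for H2-K1, 5.40% for H2-D1, 8.07% for H2-Q2, 10.9% for H2-Q1 and 5.91% for H2-T23. It was highest among the class I genes for H2-T22 at 18.5%, mostly with H2-T10, and for H2-Q6 (17.9%) and H2-Q7 (16.95%). With runs of 150 bases every class I gene shared under 6%. H2-T10 itself, annotated as a polymorphic pseudogene and so not counted among the 35, went from 61 to 126 counts (1.00 ± 0.31, SE, adjusted p = 0.0167). Of the other H2 rows that are not annotated as protein-coding, the pseudogene H2-K2 was also higher (0.75 ± 0.18, adjusted p = 0.00246) and H2-Bl lower (-0.40 ± 0.11, adjusted p = 0.00702). An antisense gene, A930015D03Rik, overlaps H2-T22, H2-T23 and H2-T24 but had 34 counts in all, against 2243 for H2-T22 and 7049 for H2-T23.

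Among the loading genes, Tap1 and the peptide editor gene Tapbpl fell. Tap1 (ENSMUSG00000037321, chromosome 17, 34187553 to 34197225, plus strand), which encodes one side of the TAP transporter, read 44.4 and 39.5 CPM with vehicle and 28.9 and 25.6 CPM with SGC-CBP30. Both treated libraries were below both controls (-0.63 ± 0.10, SE, adjusted p = 4.80e-05). Tap2, the other side of the pump, had 13.9 CPM in each vehicle library and 12.5 and 11.2 CPM with SGC-CBP30, and did not pass (-0.23 ± 0.15, adjusted p = 0.249). Per length, Tap1 was 2.20 and 1.96 times Tap2 with vehicle and 1.59 and 1.58 times with SGC-CBP30. Tapbpl, which encodes the tapasin-related peptide editor TAPBPR, fell from 28.7 and 32.0 CPM to 21.9 and 20.3 CPM (-0.52 ± 0.11, adjusted p = 0.000974). Vamp1 lies over all 7928 bases of Tapbpl on the opposite strand, with 1106 counts against 1745; how far their exons coincide was not examined. Tapasin itself, Tapbp, was the most abundant loading gene and had 131 and 135 CPM against 151 and 144 CPM (0.15 ± 0.066, adjusted p = 0.104), and it passed as higher without SGC-CBP30 replicate 2 (log2 fold change 0.18, adjusted p = 0.0184). Zbtb22 overlaps 3421 bases of Tapbp on the same strand, with 1795 counts against 9573. Erap1, a peptidase that trims peptides to length, had 78.3 and 74.3 CPM against 68.4 and 68.9 CPM (-0.15 ± 0.076, adjusted p = 0.141); Cast, with 13710 counts against 4941, overlaps it by 834 bases on the opposite strand. Nlrc5, the class I transactivator gene, was scarce, with 34 and 27 counts against 22 and 8 (-1.05 ± 0.48, adjusted p = 0.107). It passed only without SGC-CBP30 replicate 1 (log2 fold change -1.98, adjusted p = 0.0183).

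The 3 immunoproteasome genes were lower in both treated libraries than in either control. Psmb10 replaces the constitutive subunit gene Psmb7, Psmb8 replaces Psmb5 and Psmb9 replaces Psmb6. Psmb10, by far the most abundant at 27.6 ± 0.971 FPKM with vehicle, read 46.2 and 48.3 CPM against 40.2 and 36.6 CPM (-0.30 ± 0.092, SE, adjusted p = 0.0153). Psmb8 read 13.4 and 12.2 CPM against 10.5 and 8.43 CPM (-0.43 ± 0.16, adjusted p = 0.0447), and Psmb9 11.6 and 10.8 CPM against 8.29 and 7.23 CPM (-0.53 ± 0.17, adjusted p = 0.0218). The calls were weak although the direction held. By DESeq2 0 of 3 passed (adjusted p = 0.0954, 0.237 and 0.154; 2 had an unadjusted p under 0.05), edgeR without vehicle replicate 1 or without SGC-CBP30 replicate 2 also called 0 (2 unadjusted in either case), and edgeR called 1 without vehicle replicate 2 and 1 when scaled to library totals. Their sum went from 71.1 and 71.3 CPM to 59.0 and 52.3 CPM.

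Of the 3 constitutive counterparts 2 rose. Psmb5 rose from 46.6 and 44.1 CPM to 62.0 and 58.1 CPM (0.40 ± 0.084, SE, adjusted p = 0.00066) and Psmb6 from 70.1 and 68.8 CPM to 87.5 and 77.3 CPM (0.25 ± 0.079, adjusted p = 0.0202), while Psmb7 had 39.2 and 39.9 CPM against 49.4 and 43.3 CPM (adjusted p = 0.0678). Within a library, the FPKM ratio of Psmb8 to Psmb5 was 0.0942 and 0.0910 with vehicle and 0.0558 and 0.0477 with SGC-CBP30. The ratio of Psmb9 to Psmb6 was 0.0843 and 0.0801 against 0.0485 and 0.0479, and that of Psmb10 to Psmb7 was 2.37 and 2.43 against 1.63 and 1.70. All 3 ratios were lower in both treated libraries, and they do not depend on how libraries are scaled. The PA28 genes Psme1, Psme2 and Psme3, which encode activators of the proteasome, did not pass (log2 fold changes -0.12 ± 0.071, -0.42 ± 0.39 and -0.051 ± 0.065, SE). For Psme2 the groups overlapped, with 71.1 and 41.1 CPM with vehicle and 38.4 and 45.5 CPM with SGC-CBP30.

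**Figure D3:**
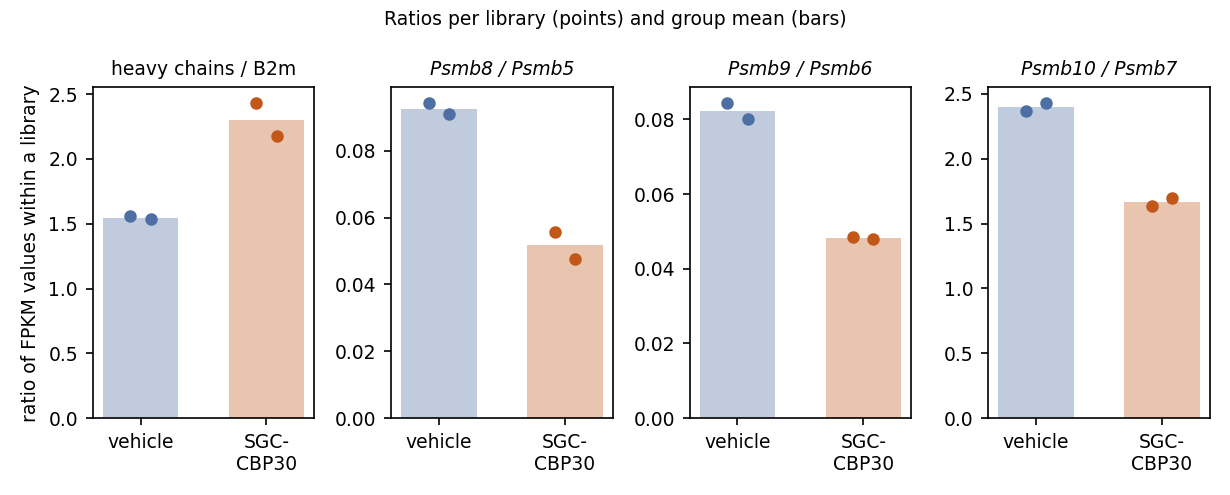
Ratio of FPKM values within each library (points) with the group mean (bars, from 0) for summed heavy chains over B2m and for each immunoproteasome subunit over its constitutive counterpart. The first ratio lies higher with SGC-CBP30 and the other 3 lie lower, with no overlap.

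Of the 35 genes, 27 lie on chromosome 17, where the MHC is, and 22 of these were tested. Psmb9, Tap1, Psmb8 and Tap2 stand side by side within 34.3 kb (17, 34181988 to 34216321), between class II genes, and had log2 fold changes of -0.53, -0.63, -0.43 and -0.23. Psmb9 and Tap1 overlap by 212 bases of gene span on opposite strands, and reads from those bases cannot be told apart without strand. The tested class II genes on either side, H2-DMb1 and H2-Ab1, had 1.48 and 0.25, and neither passed. H2-DMb1, with 9 and 0 counts against 10 and 16, passed the filter on low counts through its treated libraries. Its 1.48 is therefore no contrast to the genes between. Heavy chain genes at both ends of the complex, H2-K1 near the start and H2-T22 and H2-T23 towards the other end, were higher, while H2-Q1, beside H2-D1, and H2-T3, beyond H2-T22, were lower. The called neighbours H2-Q1 and H2-Q2 were both lower, and the called neighbours H2-T23 and H2-T22 both higher. Of these heavy chain calls, those of H2-K1, H2-T23 and H2-Q2 did not hold under every alternative processing. No test of position was made.

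**Figure D4:**
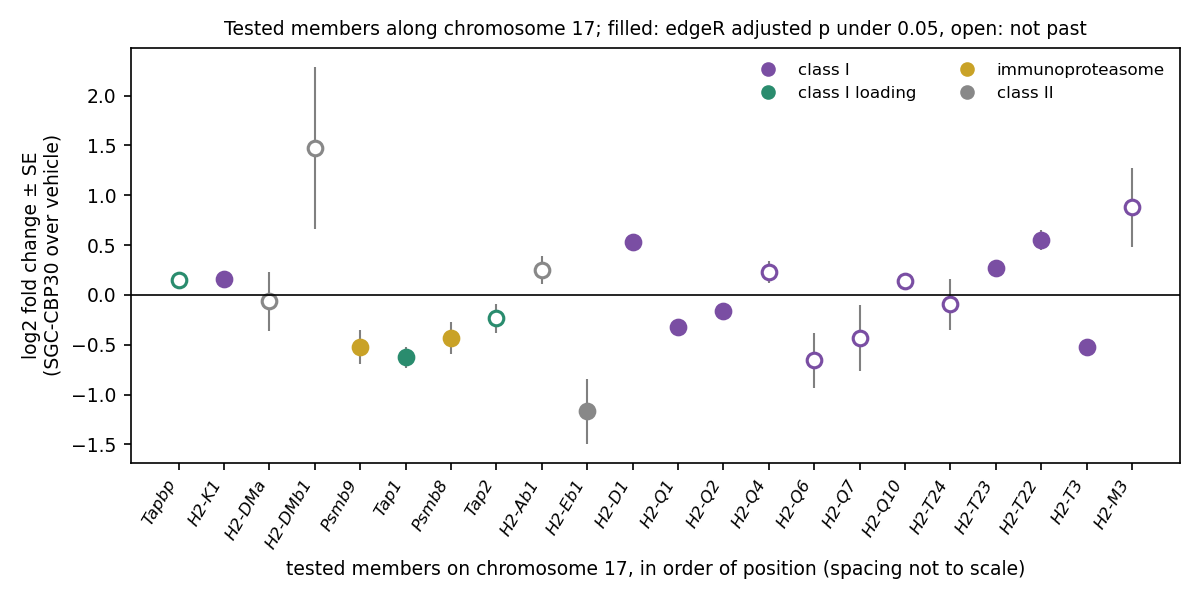
Log2 fold change (y axis, with SE) of the 22 tested chromosome 17 genes in order of position (x axis, spacing not to scale), coloured by class and filled where the edgeR adjusted p was under 0.05. Psmb9, Tap1, Psmb8 and Tap2 lie together below 0, and class I genes lie on both sides.

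Class II transcripts were scarce. The most abundant, H2-Ab1, had 8.15 ± 0.997 FPKM with vehicle (SD, n = 2), and the 7 class II genes together had 26.0 and 27.8 CPM with vehicle and 25.2 and 26.5 CPM with SGC-CBP30, against 3708 and 3807 CPM and 4024 and 3621 CPM for class I. Neither CPM sum differed by more than the spread between replicates. By FPKM, in which the short B2m weighs more, the class I sum was 1961 ± 45.4 with vehicle and 1833 ± 114 with SGC-CBP30 (SD, n = 2). The direction was thus opposite to that by CPM. The class I libraries, 1929 and 1993 against 1914 and 1752 FPKM, did not overlap, and the means differed by more than either SD. The class II sum was 17.5 ± 0.828 FPKM with vehicle and 16.2 ± 0.561 with SGC-CBP30, also lower without overlap and by more than either SD. H2-Ab1, the beta chain of the I-A molecule, had 217 and 232 counts with vehicle and 268 and 283 with SGC-CBP30 (0.25 ± 0.14, SE, adjusted p = 0.192), while its alpha partner H2-Aa had 9 and 2 counts against 7 and 2 and was not tested. The beta chain transcript, the most abundant of a scarce class, thus stood beside an alpha chain that was nearly undetected.

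Within class II, 2 genes fell. H2-Eb1 (ENSMUSG00000060586, chromosome 17, 34305877 to 34316199, plus strand), the beta chain of I-E, whose alpha gene is defective in C57BL/6 mice, had 60 and 58 counts with vehicle and 26 and 28 with SGC-CBP30. Replicates were almost equal and the groups far apart, with a log2 fold change of -1.17 ± 0.33 (SE, adjusted p = 0.00826; DESeq2 adjusted p = 0.08). Cd74 (ENSMUSG00000024610, chromosome 18, 60803848 to 60812646, plus strand), the invariant chain that guards the class II groove, had 109 and 79 counts against 55 and 65 (-0.68 ± 0.25, adjusted p = 0.0413). Cd74 did not pass by DESeq2 (adjusted p = 0.219), with library totals as the scale (edgeR, 0.0655), or without vehicle replicate 1 (0.289) or SGC-CBP30 replicate 1 (0.151). H2-DMa and H2-DMb1 encode the DM molecule, which exchanges class II peptides. H2-DMa had 48 and 68 counts against 55 and 60, and H2-DMb1 9 and 0 against 10 and 16 (adjusted p = 0.186). The transactivator gene Ciita had 7 and 4 counts against 7 and 12 and was not tested. Dexi, listed as overlapping it on the opposite strand, had 603 counts.

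Some markers of antigen-presenting cells were also lower with SGC-CBP30, and others were not. The 8 macrophage and dendritic cell markers summed to 7.59 and 5.26 CPM with vehicle and to 4.29 and 4.10 CPM with SGC-CBP30. Flt3 and Xcr1 were at 0 in every library, and 3 of the 8 were tested. Of these the macrophage growth factor receptor gene Csf1r fell, from 53 and 38 counts to 13 and 11 (-1.95 ± 0.43, SE, adjusted p = 0.00106), while Itgam (-1.02 ± 0.52) and Cd68 (0.19 ± 0.40) did not pass. Itgax, a dendritic cell marker too low to test, had 2 and 1 counts with vehicle and 13 and 9 with SGC-CBP30. Of the B cell markers, also untested, Cd79b had 8 and 11 counts against 2 and 3, Ms4a1 1 and 9 against 2 and 0, and Cd79a 2 and 2 against 1 and 0. The 5 pan-leukocyte markers, Ptprc among them, summed to 1.42 and 0.815 CPM with vehicle and 1.41 and 1.14 CPM with SGC-CBP30. The part of these cells in the class II result was not tested.

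**Figure D5:**
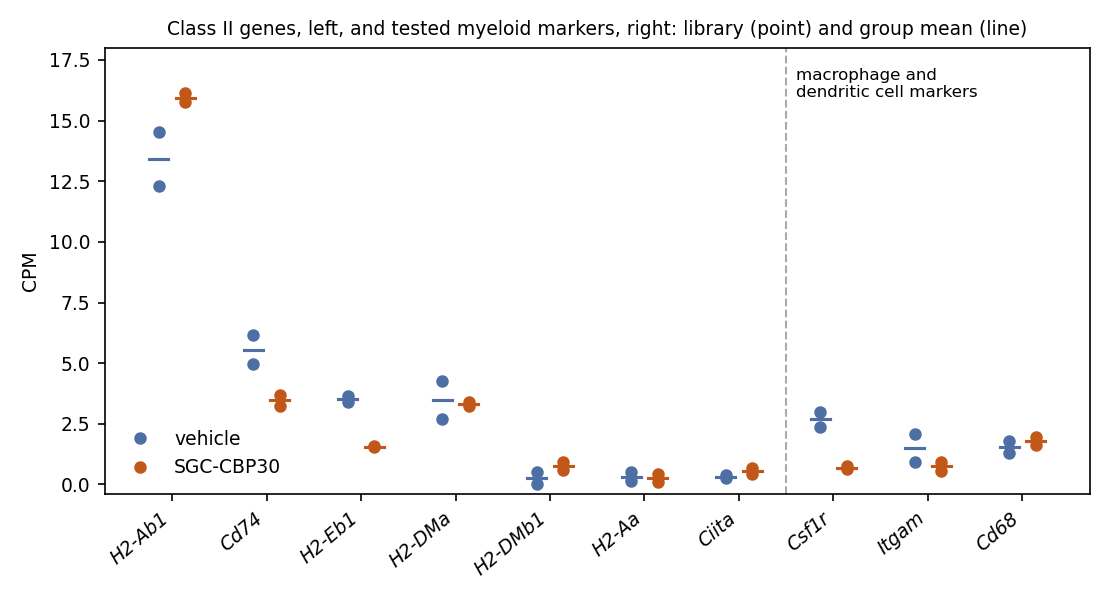
CPM of the 7 class II genes and of 3 macrophage and dendritic cell markers in each library (points) with group means (lines). H2-Eb1, Cd74 and Csf1r lie lower with SGC-CBP30, and H2-Ab1 lies higher without passing the test.

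Genes of the wider pathway were read from lists, whose counts stand beside the 30.0% of all genes tested that were called, 13.6% higher and 16.3% lower. A list's share near these is not a result about the list. Of 14 interferon-gamma signalling genes 5 fell and 9 did not pass. Both receptor chains were among the 5: Ifngr2 went from 175 and 180 CPM to 142 and 139 CPM (-0.34 ± 0.064, SE, adjusted p = 0.000243), and Ifngr1 had a log2 fold change of -0.21. The kinase gene Jak2 fell by 0.24 and the feedback inhibitor gene Socs3 by 0.70 on the log2 scale. Irf1, a transcription factor gene whose product binds the class I and Tap1 promoters, had 72.0 and 64.6 CPM against 62.9 and 61.1 CPM (adjusted p = 0.203). Irf1 and Ifngr1 were named for their role after their values were seen.

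Of 12 class II promoter factors and cofactors 2 rose, 1 fell and 9 did not pass. Smarca4, a chromatin remodelling ATPase gene, rose by 0.50 ± 0.066 (SE, adjusted p = 1.76e-06) and Ep300 by 0.24 ± 0.067, and Zxdc fell by 0.36 ± 0.11. The RFX genes Rfx5, Rfxap and Rfxank, which bind the X box of class II promoters, were among the 9. Of 9 chaperones of class I folding, Canx, which encodes calnexin, the chaperone of new heavy chains, fell from 441 and 439 CPM to 344 and 349 CPM (-0.35 ± 0.057, adjusted p = 4.51e-05), Erp29 rose by 0.37 ± 0.098 and 7, calreticulin (Calr) and Pdia3 among them, did not pass.

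Of 8 tested class II peptide processing genes 2 rose and 2 fell. The protease genes Lgmn and Ctsl rose by 0.54 ± 0.083 and 0.44 ± 0.095 (SE), whereas Ctss, the cathepsin that removes the invariant chain in antigen-presenting cells, fell by 0.53 ± 0.096 (adjusted p = 0.000145), and Ctsb fell by 0.20 ± 0.060. Of 9 tested genes listed as other ligands that epithelium offers to lymphocytes, 3 butyrophilin-like genes fell and 6 did not pass. Epcam, used above as an epithelial marker, is among the 6. So is Btnl4, another butyrophilin-like gene (-0.17 ± 0.081, edgeR adjusted p = 0.116). Btnl1, whose product holds gamma-delta T cells in the small intestine, fell from 337 and 339 CPM to 213 and 211 CPM (-0.67 ± 0.059, adjusted p = 2.31e-09), Btnl2 by 0.57 ± 0.067 and Btnl6 by 0.33 ± 0.065. In the authors' deposited table, 8 of the 28 tested genes were under an adjusted p of 0.05, and all 8 were among the 15 called here, with the same sign.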

How the data were processed

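Libraries were made from total RNA with a NEBNext kit, per the labels' protocols. Tools listed, per the submitters' processing notes and with no role given, were featureCounts 1.5.0-p3, HISAT2 2.0.5 and StringTie 1.3.3b. Those notes list mm9 as build, but 98.5% of the 51477 identifiers shared with GENCODE M21 had its GRCm38 coordinates, which are used here. Per the file headers, the authors gave raw counts per gene and library, and FPKM, which equal the deposited count divided by the deposited gene length and a scaled library total. A log2 fold change and an adjusted p-value were also deposited, by a test not given in the sources used here. The table is held in part, with 51509 genes, of which 26144 have a count. Symbols turned into dates (27) were restored by identifier.

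Low counts were removed by group (filterByExpr), TMM factors were computed, and edgeR 4.0.16 in R 4.3.3 gave a robust quasi-likelihood F test without covariate. Benjamini-Hochberg adjustment ran over all 14684 genes tested, with a threshold of 0.05. Each SE is the log2 fold change over the root of its F statistic. CPM use the TMM factors. The procedure was run on simulated data with far fewer changed genes than were called here. That run gives no error rate for these data. Given as mean ± SD, n is 2 per group. At these depths 3 counts equal 0.170 to 0.188 CPM. Shared sequence was computed from GENCODE M21 transcripts. DESeq2 1.42.0, other scalings and filters, a replicate block and leaving out each library were alternatives. The members, lists and motifs were chosen with earlier results of these data known. Every member was named, and of each list up to 3 called genes of smallest p; some list genes are not reported here, and others, such as Ctsb, Irf1, Ifngr1, Rfx5, Calr, Pdia3, Ptprc and the PA28 genes, were named after their values were seen.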

Additional observations from a re-analysis of the deposited data

How the results depend on the processing

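Depth limits the 7 genes that were not tested and the class II genes, where a few counts decide a value. DESeq2 called 2722 genes in all against 4401, and 0 class II and 0 immunoproteasome genes (1 and 2 at an unadjusted p under 0.05) against 2 and 3. With library totals as the scale 4831 genes were called, 2907 higher and 1924 lower against 2004 and 2397, with 1 class II and 1 immunoproteasome gene, and the median of all genes was 0.083. With no filter on low counts 1 class II gene was called. Leaving out each library in turn gave 2899 (without vehicle replicate 2) to 4557 genes in all, 5 to 9 class I genes (5 without either vehicle replicate), 1 to 2 class II genes (1 without SGC-CBP30 replicate 1) and 0 to 3 immunoproteasome genes. The loading genes called were 2 or 3 under every alternative run. The summed class I level, with a log2 ratio of 0.025, ranged from -0.053 (without SGC-CBP30 replicate 1) to 0.099 when libraries were left out and was -0.097 by summed FPKM; the summed class II level was 0.017 by library totals against -0.056. The summed immunoproteasome level stayed between -0.45 and -0.27. H2-T24 ranged from -0.58 to 0.26 (without SGC-CBP30 replicate 1) and H2-DMa from -0.36 to 0.29 (without vehicle replicate 2) as libraries were left out, and H2-DMa had 0.010 by library totals. Calls lost at other filters were H2-Q2 (adjusted p = 0.0519), Cd74 (0.056) and Psmb8 (0.0608) with no filter and H2-K1 (0.061) at 50 counts in 2 libraries. With library totals H2-Q10 (0.0132), H2-Q4 (0.0418) and Tapbp (0.0124) passed. H2-DMb1 passed without vehicle replicate 1 (adjusted p = 0.0232), which left 0 counts in vehicle. Apart from what fewer libraries or genes explain by construction, the cause was not tested. The replicate block called 4703 genes and changed no call among the 28; the replicate numbers share only a number, with a correlation of -0.024 between the groups' replicate differences.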
